A study of Homo sapiens with 4 samples.

Results

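The 4 ERBB receptors (EGFR, ERBB2, ERBB3 and ERBB4) and 6 EGF-like ligands (EGF, TGFA, AREG, EREG, BTC and HBEGF) were followed in Hep3B cells, a human hepatocellular carcinoma line, after knockdown of UNC50. All non-control probes of the array that carried one of these 10 gene names were taken, whatever their signal, which gave 17 of 42405 non-control probes and 10 of 34809 gene names. The series had 4 single-colour expression arrays, 1 for each culture. Cells were lipofected with a pLKO.1 plasmid that expressed a short hairpin RNA and were held in 1 µg/ml puromycin to enrich transfected cells. The mock array came from cells given the control hairpin plasmid (shR-MOCK), and the UNC50 knockdown arrays came from cells given shR-467, shR-554 or shR-749, whose target sites lie at bases 467, 554 and 749 of UNC50 mRNA. All 4 cultures shared the line, the plasmid backbone and the selection, so no array of untreated cells was part of the comparison.

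The ERBB receptors are receptor tyrosine kinases of the cell surface, and ligand binding makes them pair and phosphorylate each other on their intracellular tails. EGF, TGFA and AREG bind EGFR, whereas EREG, BTC and HBEGF bind both EGFR and ERBB4. ERBB2 has no known ligand of its own and acts as a partner, and ERBB3 binds neuregulins and signals mainly through its partners because its kinase is weak. The ligands are made as membrane-anchored precursors and are released by proteases such as ADAM17. UNC50 is a protein of the Golgi apparatus, and the study asked whether its loss altered EGFR, its delivery and the genes that respond to it.

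The probes were 60 bases long. The 3 below are shown because each lies in protein-coding sequence and because 2 of them measured a gene a second time. They are written 5' to 3' in lower case as the array design lists them. The EGFR probe A_33_P3351955, at chr7:55231446-55231505 on the plus strand of hg19, is annotated to the transcripts of the truncated receptor (variants 2 and 4) and lies in extracellular-domain sequence that full-length EGFR mRNA also holds. The TGFA probe A_33_P3408203, at chr2:70683472-70683531 on the minus strand, covers sequence for the membrane-spanning segment. The AREG probe A_33_P3419190, at chr4:75318293-75318352 on the plus strand, covers the end of the coding sequence, in the cytoplasmic tail.
EGFR A_33_P3351955: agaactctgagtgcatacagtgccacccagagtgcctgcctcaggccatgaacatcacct
TGFA A_33_P3408203: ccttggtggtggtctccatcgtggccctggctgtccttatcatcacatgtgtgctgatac
AREG A_33_P3419190: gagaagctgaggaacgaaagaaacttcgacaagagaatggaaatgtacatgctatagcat

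UNC50 served as the check of the labels. Its processed signal was 5010 with shR-MOCK, 1050 under shR-467, 853 under shR-554 and 947 under shR-749, so every knockdown array lay below the mock array. After each array was scaled to its 75th percentile, UNC50 stood at 24.0%, 13.7% and 18.7% of the mock level, a mean log2 difference of -2.45 ± 0.40 (SD, n = 3 hairpins). The reading was lowest with shR-554, but the probe had 1 spot per array, so the order of the hairpins has no spot error.

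Across the arrays the 75th percentile of the signal was 978 to 1390, and 67.6% to 73.6% of the non-control spots were well above background, the scanner software's own test of a spot against its local background. All 10 liver-cell markers (among them ALB and AFP) and all 4 epithelial markers were detected on all 4 arrays. Of the markers of other cell types, 2 of 6 for fibroblasts (LUM and DCN), 3 of 5 for endothelial cells and 5 of 5 for leukocytes were detected on the mock array, while COL1A1, COL1A2, PDGFRA, PDGFRB, KDR and TIE1 were not. LUM, a matrix proteoglycan, was 1.59-fold higher on average with the UNC50 hairpins. DCN was 1.37-fold lower on average and was not detected on all 4 arrays. No endothelial or leukocyte marker reached 1.5-fold on average. Of the liver markers, 4 of 10 were at least 1.5-fold higher on average with the UNC50 hairpins, beside 2.28% of the 24878 genes compared. The part of these markers in the values below was not tested. With 1 mock array, the mock group has no spread of its own. The 3 hairpins are different reagents in 1 culture each, so their SD mixes reagent with culture and array differences, which cannot be told apart. All 4 arrays lay on 1 slide and were scanned together.

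A probe was counted as detected on an array where every spot used was well above background. By this rule 12 of the 17 probes were detected on all 4 arrays, and they covered 8 of the 10 genes. ERBB4 was missing from that set, as was EGF, which was detected on the mock array only. Detection on the mock array, or else on each of the knockdown arrays, was required for the comparison and left 14 probes of 9 genes. Because a probe could enter through the mock array alone, counts over the kept probes lean towards lower values with the hairpins, and counts over probes detected on all 4 arrays are given as well.

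**Figure D1:**
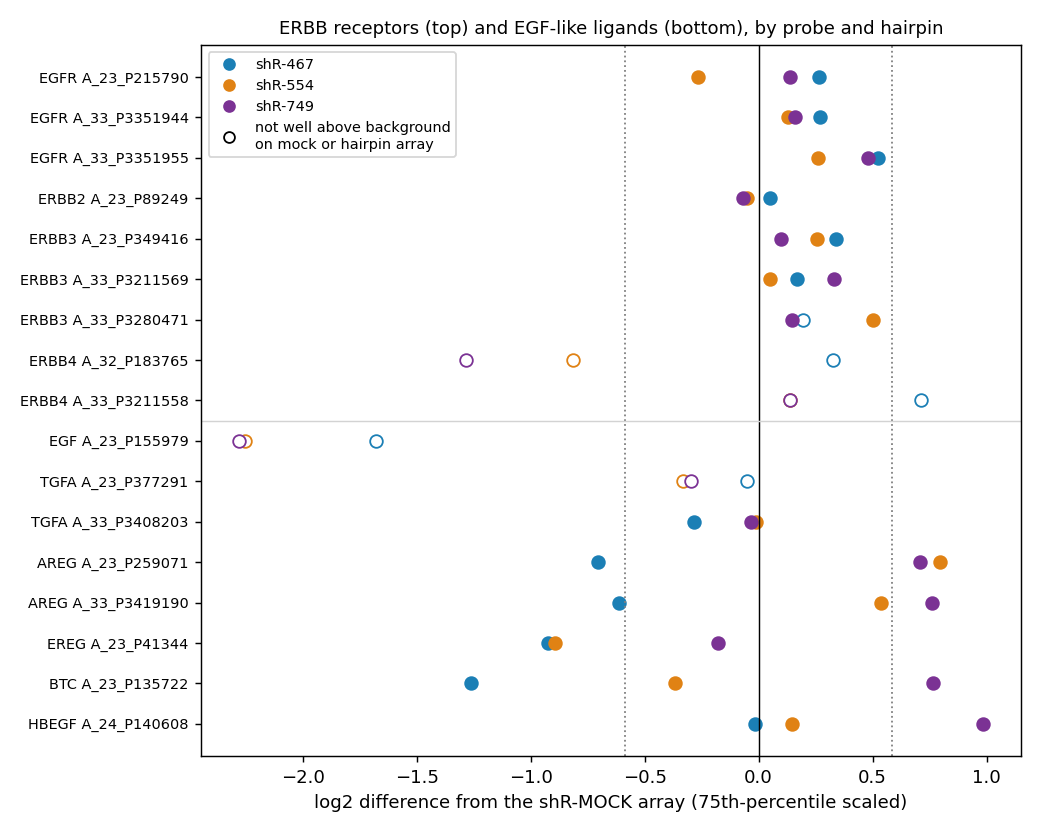
Log2 difference from the shR-MOCK array (x axis, after 75th-percentile scaling) for each of the 17 probes (y axis, receptors above the grey line, ligands below), with 1 point for each hairpin and dotted lines at 1.5-fold. Hollow points mark comparisons in which the mock or the hairpin array was not well above background. Filled receptor points lie between -0.26 and 0.52, and filled ligand points between -1.26 and 0.99.

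EGFR mRNA differed little between the mock and UNC50 knockdown arrays. The probe in the 3' part of the full-length transcript, A_23_P215790 (chr7:55274841-55274900, hg19), was printed in 10 spots per array, and its mean signal was 1242 with shR-MOCK, 1304 under shR-467, 1283 under shR-554 and 1378 under shR-749. The scaled log2 differences were 0.27, -0.26 and 0.14, a mean of 0.05 ± 0.28 (SD, n = 3), with shR-467 and shR-749 above the mock array and shR-554 below it. The SD of its spots within an array was 0.03 to 0.05 on the log2 scale, so each gap between neighbouring arrays was larger than the spot error although the hairpins disagreed in sign. The mean was smaller than the spread between hairpins.

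The other EGFR probes are annotated to transcripts of truncated, secreted receptor forms. Probe A_33_P3351944 (variant 3, chr7:55224558-55224617) gave 156, 164, 213 and 176 for the mock array and then the hairpins by number. All 3 hairpin arrays lay above the mock array, by a mean log2 difference of 0.19 ± 0.07 (SD, n = 3). Probe A_33_P3351955, printed above, whose sequence does not separate truncated from full-length transcripts, gave 85.0, 106.8, 126 and 119, a mean of 0.42 ± 0.14 (SD, n = 3). Its 2 mock spots read 66.9 and 108, a spot SD of 0.49, so the lower mock value rested mainly on 1 spot. No EGFR probe was lower than mock with every hairpin, and none was 1.5-fold from mock with any hairpin.

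ERBB2, the ligandless partner of the family, had the steadiest value. Probe A_23_P89249 (chr17:37884829-37884888) was also printed in 10 spots and read 2459 with shR-MOCK, 2220 under shR-467, 2949 under shR-554 and 2368 under shR-749. The scaled log2 differences were 0.05, -0.05 and -0.07, a mean of -0.02 ± 0.06 (SD, n = 3). The values with shR-554 and shR-749 differed by less than the spot SD, and the mock value lay between those of the hairpins.

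**Figure D2:**
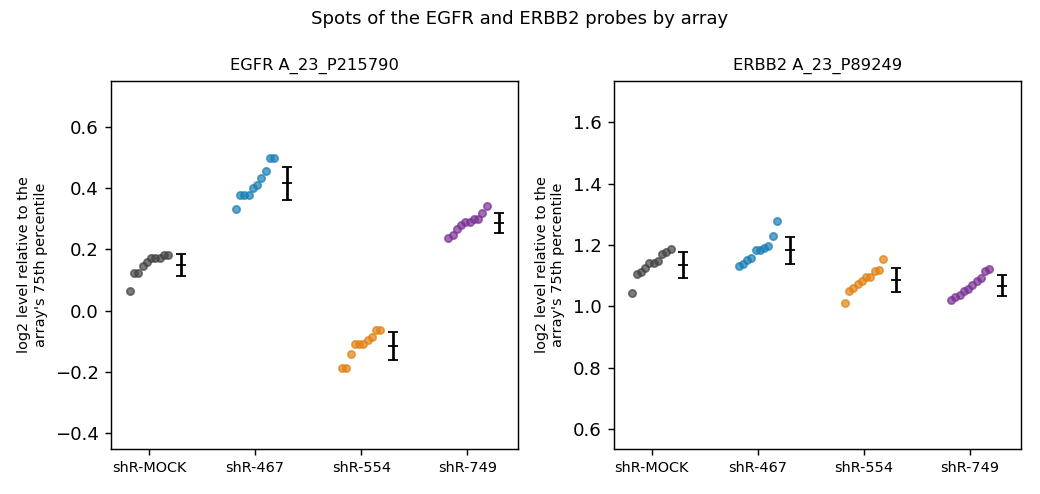
Spots of the 10-spot probes for EGFR (left) and ERBB2 (right) on each array, as log2 level relative to the array's 75th percentile (y axis). Points are single spots left after outlier flags, and bars show the mean and SD of the spots. EGFR is highest with shR-467 and lowest with shR-554, and the ERBB2 arrays lie within a narrow band.

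ERBB3, the neuregulin receptor with a weak kinase, was slightly higher on every knockdown array. Its full-length probe A_23_P349416 (chr12:56496160-56496219) read 2610, 2885, 3865 and 2819 in the same order of arrays, with scaled log2 differences of 0.34, 0.25 and 0.10 and a mean of 0.23 ± 0.12 (SD, n = 3). The gap between shR-749 and shR-MOCK, 0.10, was within the spot SD of 0.13. Probe A_33_P3211569, annotated to a short variant that lacks most of the receptor (chr12:56479217-56479276), read 653, 641, 837 and 827, a mean of 0.18 ± 0.14 (SD, n = 3). The remaining probe, A_33_P3280471 (chr12:56482380-56482439, 1 spot), was near background at 25.1, 25.1, 44.1 and 28.0 and was not well above background with shR-467. All 3 probes thus had a positive mean, and none reached 1.5-fold with any hairpin.

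ERBB4, a receptor for neuregulins and for several of the EGF-like ligands, was not detected. Probe A_32_P183765 read 19.6, 21.5, 13.8 and 8.1, and probe A_33_P3211558 read 5.0, 7.1, 6.8 and 5.5, where the lowest signal well above background was 21.2 to 28.3 across the arrays. A single spot of A_32_P183765, at 32.7 under shR-554, passed the background test, and its partner spot did not. No direction is given for ERBB4.

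Over the 6 receptor probes detected on all 4 arrays, mean log2 differences ran from -0.02 to 0.42 and single differences from -0.26 to 0.52. None was 1.5-fold from mock with any hairpin. The range over the 3 hairpins had a median of 0.25, beside 0.41 over all 25709 probes detected on all 4 arrays.

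The ligands spread more widely. Of the 8 ligand probes, 6 were detected on all 4 arrays and covered 5 of the 6 genes, with mean log2 differences from -0.66 to 0.37 and single differences from -1.26 to 0.99. The range over hairpins had a median of 1.19. EGF and EREG were the kept genes whose mean was at least 1.5-fold lower, 2 of 14 probes, beside 7.14% of the 29943 kept probes of the array. No member probe was at least 1.5-fold higher on average, beside 2.24%. EREG alone was lower by that rule among members detected on all 4 arrays, where 2.77% of the array's probes were lower and 2.31% higher. The median mean difference of the 14 kept probes was 0.18, and that of all kept probes was -0.03.

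EGF, the ligand that gave the family its name, was close to background throughout. Its probe A_23_P155979 (chr4:110932689-110932748, 2 spots) read 29.3 with shR-MOCK, 8.0 under shR-467, 7.6 under shR-554 and 6.1 under shR-749. The mock spots, 29.6 and 29.0, were well above background at 1.38 times the lowest such signal of that array, and no knockdown array was well above background. The measured log2 differences were -1.68, -2.25 and -2.28, a mean of -2.07 ± 0.34 (SD, n = 3).

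Since the knockdown values are below detection, they give only a bound. Taking the dimmest detected signal of each knockdown array in place of the EGF reading, EGF was at least 1.15-fold lower on average, and at least 1.00-, 1.28- and 1.18-fold lower for the hairpins by number. EGF was the only member past 1.5-fold the same way with every hairpin, 1 of 14 kept probes beside 1.74% of all kept probes, and that count used signals below detection. With signals under the detection level raised to it, its mean log2 difference was -0.20.

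EGF was also the 1 member for which the deposited log2 table departed from the scanner signals. Quantile normalization of the scanner signals gave 4.81, 2.93, 3.25 and 2.78 on the mock array and the 3 hairpin arrays by number, and the deposited table held 4.81, 2.58, 3.25 and 3.05. The departures were -0.35 under shR-467 and 0.27 under shR-749. The largest departure of the other 16 member probes was 0.0071. Of 42400 probes, 5 departed by over 0.1, EGF among them. The deposited values place EGF below mock with every hairpin, with the order of shR-467 and shR-749 exchanged.

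**Figure D3:**
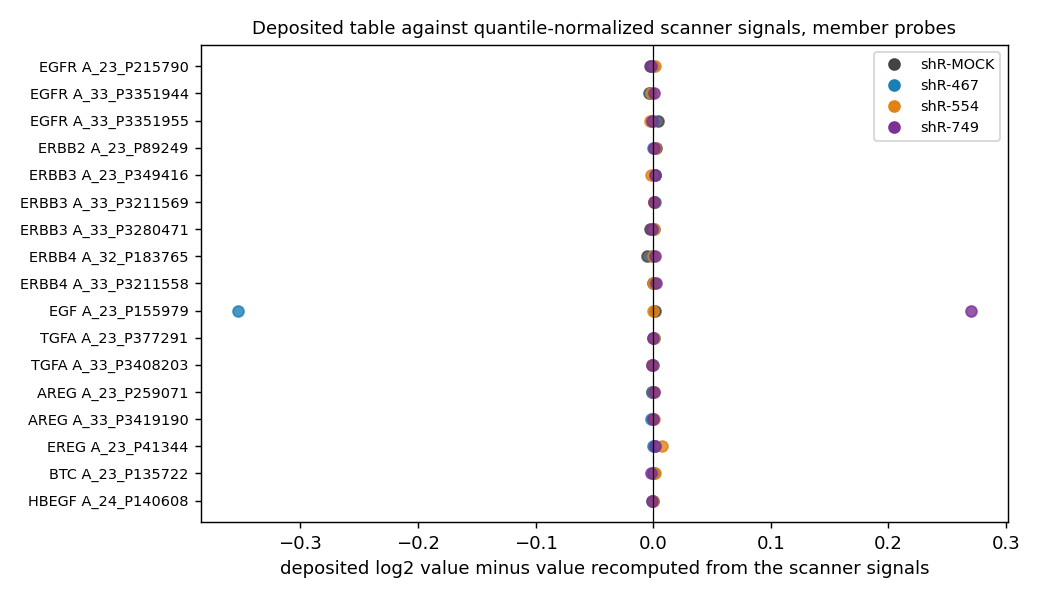
Deposited log2 value minus the value recomputed by quantile normalization of the scanner signals (x axis) for each of the 17 member probes (y axis), 1 point per array. EGF lies at -0.35 under shR-467 and 0.27 under shR-749, and all other points are within 0.0071 of 0.

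TGFA, which shares EGFR with EGF, was read by probes that disagreed on detection. A_23_P377291, in the 3' part of the transcript, read 6.4, 5.4, 6.3 and 5.3 and failed the background test on every array. The transmembrane-segment probe A_33_P3408203, printed above, read 643 with shR-MOCK, 462 under shR-467, 791 under shR-554 and 635 under shR-749 and was detected on all 4. Its log2 differences were -0.28, -0.01 and -0.03, a mean of -0.11 ± 0.15 (SD, n = 3). The lower value with shR-467 came from 1 of 2 spots, which read 636 and 336, and the gaps between neighbouring arrays were all within the spot SD.

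AREG, a ligand that binds EGFR alone and is often raised in liver injury and liver cancer, lay on opposite sides of mock with different hairpins. Probe A_23_P259071 (chr4:75320518-75320577, 2 spots) read 8343 with shR-MOCK, 4472 under shR-467, 17986 under shR-554 and 13746 under shR-749. Relative to mock, AREG stood at 61.4% under shR-467, 174% under shR-554 and 163% under shR-749. The log2 differences of -0.70, 0.80 and 0.71 gave a mean of 0.27 ± 0.84 (SD, n = 3).

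The second AREG probe, A_33_P3419190, printed above, gave the same order of signs. It read 2680, 1530, 4830 and 4580, with log2 differences of -0.61, 0.54 and 0.76 and a mean of 0.23 ± 0.74 (SD, n = 3). The spot SD of the first probe was at most 0.08, so the gap of 0.70 between shR-467 and mock and that of 0.71 between shR-749 and mock were both far beyond the error of the spots. Between the highest and the lowest hairpin the probes differed 2.83-fold and 2.59-fold, ranges larger than those of 97.2% and 96.3% of the probes detected on all 4 arrays. The mean was smaller than its SD for both probes, so the 3 hairpins as a group were not distinguishable from mock. The annotation of the first probe also lists a predicted transcript under another identifier. The RefSeq gene order given below (GRCh38.p14) holds no copy of AREG between EREG and BTC.

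EREG, a ligand of EGFR and ERBB4 that lies next to AREG, was below mock on every knockdown array. Probe A_23_P41344 (chr4:75254009-75254068) read 2105 with shR-MOCK, 968 under shR-467, 1408 under shR-554 and 1880 under shR-749. The log2 differences were -0.93, -0.89 and -0.18, a mean of -0.66 ± 0.42 (SD, n = 3), or 1.58-fold lower.

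The values with shR-467 and shR-554 differed by 0.03, within the spot SD of 0.10, and shR-749 lay 0.72 above shR-554. The mean was -0.53 without shR-467 and -0.55 without shR-554, both under 1.5-fold, and -0.91 without shR-749. EREG passed 1.5-fold singly with shR-467 and shR-554 and not with shR-749.

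BTC, betacellulin, had the widest spread between hairpins of all members. Its probe A_23_P135722 (chr4:75675838-75675897) read 113 with shR-MOCK, 41.3 under shR-467, 109 under shR-554 and 194 under shR-749. The log2 differences were -1.26, -0.37 and 0.77, a mean of -0.29 ± 1.02 (SD, n = 3), and each gap between neighbouring arrays exceeded the spot SD. The range of 2.03 was larger than that of 99.2% of the probes detected on all 4 arrays. Its lower end was near the floor, since the shR-467 reading was 1.62 times the dimmest detected signal of that array.

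HBEGF, the heparin-binding ligand, was higher than mock with shR-749. Probe A_24_P140608 (chr5:139713052-139713111) read 40.6 with shR-MOCK, 35.1 under shR-467, 55.8 under shR-554 and 81.2 under shR-749, and all 4 values were within a few fold of the detection level. The log2 differences were -0.01, 0.15 and 0.99, a mean of 0.37 ± 0.54 (SD, n = 3). The mock and shR-467 values differed by less than the spot SD.

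**Figure D4:**
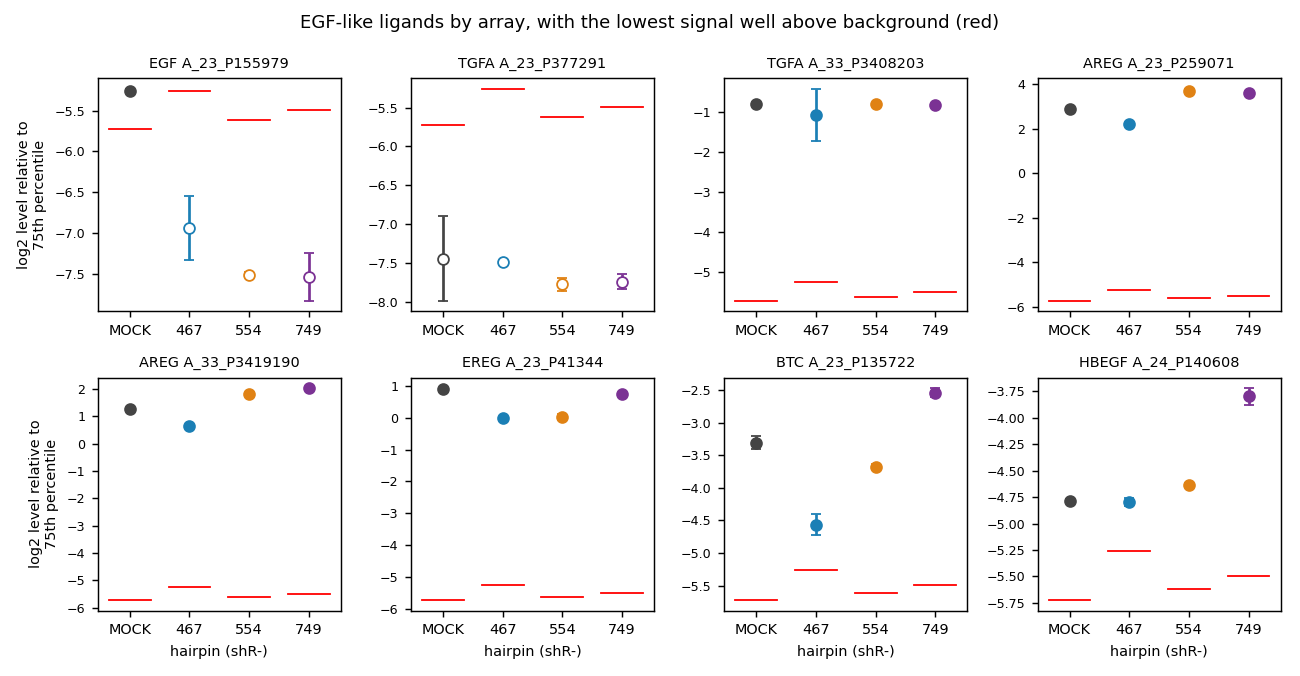
Each of the 8 ligand probes on the 4 arrays, as log2 level relative to the array's 75th percentile (y axis, a scale of its own in each panel). Points are means over spots with the spot SD as bars where a probe has more than 1 spot, hollow points are not well above background, and red lines mark the dimmest detected signal of each array. AREG and BTC lie below mock with shR-467 and above it with shR-749, and EGF is above the red line with shR-MOCK only.

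Read by hairpin, the 6 ligand probes detected on all 4 arrays parted. With shR-467, 4 of 6 were at least 1.5-fold lower, where 4.13% of the array's detected probes were lower and 5.73% higher. The others were HBEGF, at -0.01 and within its spot SD of mock, and TGFA, at -0.28, where 1 of 2 spots was low. The median log2 difference of the 6 was -0.66, beside 0.03 over all kept probes of the array. With shR-749, 4 of 6 were at least 1.5-fold higher, where 5.2% of the array's probes were higher and 6.16% lower, and the median was 0.73. With shR-554, 1 was at least 1.5-fold lower and 1 higher, beside 7.55% and 4.43%, and the median was 0.07. The 2 AREG probes read 1 gene and are not independent. The receptor medians were 0.27 under shR-467, 0.09 under shR-554 and 0.15 under shR-749.

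The pattern of being at least 1.5-fold lower with shR-467 and 1.5-fold higher with shR-749 was chosen after these values were seen, and is a description. It was held by 37 of 25709 probes detected on all 4 arrays, 0.144%, and 3 of the 37 were the AREG probes and BTC. Lower with shR-467 and higher with both other hairpins was held by 7 probes, 0.0272%, of which AREG A_23_P259071 was 1.

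**Figure D5:**
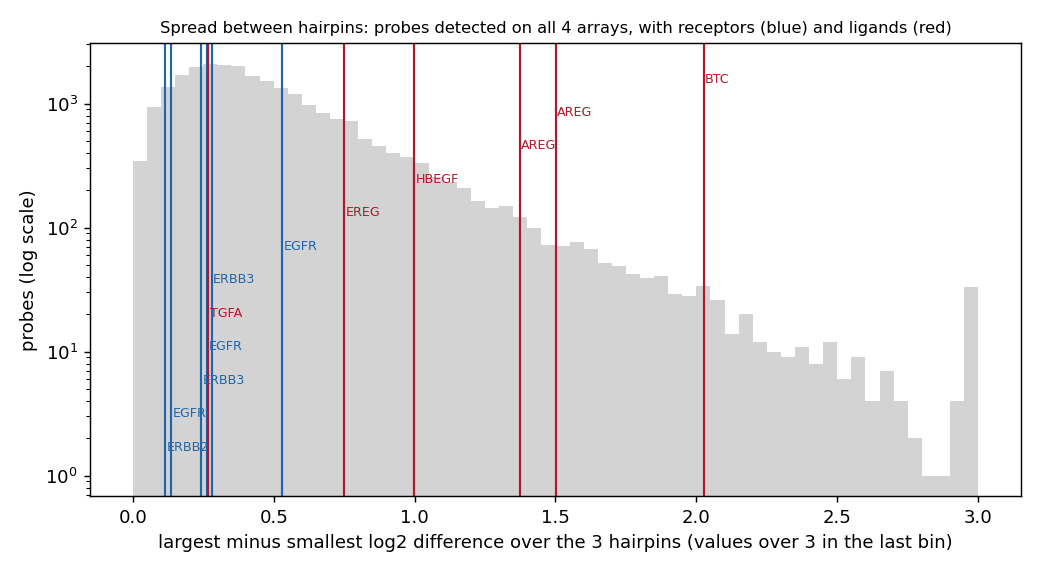
Distribution of the range over the 3 hairpins (x axis, largest minus smallest log2 difference) over the 25709 probes detected on all 4 arrays (grey, y axis as a log count), with member probes as lines, receptors in blue and ligands in red. All 6 receptor lines and TGFA lie at or below 0.53, and EREG, HBEGF, AREG and BTC lie above them, up to 2.03.

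EREG, AREG and BTC lie in a row on chromosome 4. In the RefSeq order of protein-coding genes (GRCh38.p14) the run is EPGN, EREG, AREG, BTC and PARM1. The 250 bases before the start of EREG, AREG and BTC are shown because these neighbours took different values with the same hairpins. They are RefSeq sequences of GRCh38.p14, written 5' to 3' on the gene's strand, at chr4:74364895-74365144 (EREG, plus), chr4:74444886-74445135 (AREG, plus) and chr4:74794524-74794773 (BTC, minus). Capitals mark matches to TGACGTCA (the cyclic-AMP response element), TGANTCA (the AP-1 site), TATAAA (the TATA box) or GGGCGG (the GC box), searched on both strands, with no overlaps among the matches shown.
EREG promoter: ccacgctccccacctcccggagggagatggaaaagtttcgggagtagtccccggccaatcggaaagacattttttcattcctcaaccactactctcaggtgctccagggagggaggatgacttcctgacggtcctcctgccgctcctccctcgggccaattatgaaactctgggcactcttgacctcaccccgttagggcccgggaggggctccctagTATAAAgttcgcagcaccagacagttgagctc
AREG promoter: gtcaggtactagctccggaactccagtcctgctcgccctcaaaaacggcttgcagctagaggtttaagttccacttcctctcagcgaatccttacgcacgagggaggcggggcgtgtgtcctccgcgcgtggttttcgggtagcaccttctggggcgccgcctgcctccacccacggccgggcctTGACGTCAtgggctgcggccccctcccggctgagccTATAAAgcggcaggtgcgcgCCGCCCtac
BTC promoter: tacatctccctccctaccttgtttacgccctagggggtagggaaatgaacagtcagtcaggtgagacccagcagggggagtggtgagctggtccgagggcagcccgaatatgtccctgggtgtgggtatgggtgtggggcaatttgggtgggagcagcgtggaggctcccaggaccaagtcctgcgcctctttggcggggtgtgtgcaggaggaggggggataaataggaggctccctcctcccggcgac

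The AREG window holds TGACGTCA, as do 1.646% of the 35116 RefSeq promoter windows searched. EREG and AREG both hold TATAAA, found in 10.72% of windows, and AREG holds GGGCGG on the opposite strand, found in 42.64%. None of the 3 windows holds TGANTCA, found in 6.573%, and the BTC window has no match to any of the 4. A match is a run of letters and not a measured binding site.

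No test called a member. In limma (lmFit and eBayes with an intensity trend, 3 hairpin arrays against 1 mock array), 0 of 14 kept member probes passed an adjusted p of 0.05, beside 0.0% of 29943, and their adjusted p was 0.9998. None reached an unadjusted p of 0.05, beside 1.49% of all kept probes, and the lowest was 0.0752 for EGF. The standard error of the EGFR difference was 0.27 for A_23_P215790. UNC50 itself, with the second-lowest unadjusted p on the array, 0.000151, had an adjusted p of 0.719 in limma. An exact permutation test over 4 arrays cannot give a p below 0.25.

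The other genes of the pathway were mostly flat by the 1.5-fold rule. Of the remaining ERBB ligands NRG1, NRG2, NRG3, NRG4 and EPGN, only NRG4 was kept. It read 26.1, 7.69, 28.4 and 14.0 and was detected on the mock array only, with a mean log2 difference of -0.89 ± 0.69 (SD, n = 3).

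The ligand release list (proteases and their regulators) had 7 of 9 genes kept, none of them 1.5-fold from mock on average, and a median of -0.14. ADAM10, the protease that releases EGF and BTC, was at -0.22 ± 0.17 (SD, n = 3), and RHBDF2, which carries ADAM17 to the cell surface, was at -0.28 ± 0.32. RHBDF1, its relative, was at 0.26 ± 0.22, and the proprotein convertase FURIN was at -0.14 ± 0.46.

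Among adaptors and kinases below the receptors, 28 of 28 genes were kept and 0 passed 1.5-fold, with a median of -0.04. The largest mean was that of the small GTPase NRAS, -0.42 ± 0.14 (SD, n = 3), followed by HRAS at -0.36 ± 0.49. The kinase AKT2 was at -0.27 ± 0.36 by its brightest probe and at -0.01 and 0.06 by the others, and PIK3R1, a regulatory subunit of PI3-kinase, was at -0.25 ± 0.32.

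Receptor uptake and negative control had 26 of 27 genes on the array kept, 0 past 1.5-fold and a median of -0.08. The deubiquitinase USP8 was at -0.50 ± 0.72 (SD, n = 3), a mean that rested on -1.33 under shR-554. The ubiquitin ligase CBLB was at 0.48 ± 0.41, and the endocytic proteins EPS15L1 and STAM2 were at 0.46 ± 0.25 and 0.40 ± 0.27. Over all 24878 kept genes, 7.49% were 1.5-fold lower and 2.28% higher on average, with a median of -0.03. The 28 adaptor and kinase genes and the 26 uptake genes were all detected on all 4 arrays. Over the 25709 probes so detected, 2.77% were lower and 2.31% higher, a closer base for these lists.

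The genes that the study placed downstream of EGFR include a member, EGF. That list was chosen on these arrays, so its direction on them is no independent evidence. The study also reported real-time PCR of the listed genes in UNC50 knockdown and overexpression cells, as a check of the arrays. Those measurements were not re-analysed here. All 6 were kept. CCND1 (a cell-cycle cyclin) had a mean log2 difference of -1.31, MMP7 (a matrix protease) of -1.29, AKR1B10 (an aldo-keto reductase) of -2.17 and GAST (gastrin) of -2.08, each past 1.5-fold with every hairpin. Some of the study's own listed values differ. Under shR-467 it gave larger falls than the -0.91 for CCND1 and -1.32 for MMP7 found here. For GAST it gave smaller falls than the -3.32 under shR-554 and -1.14 under shR-749 found here. The reason was not tested. The probes of MUC1, a membrane mucin, disagreed. A_23_P137856, the brighter on average, was at 0.77 and higher with every hairpin, while A_33_P3332215, the probe the study listed, was at -1.49 and lower with every hairpin. From the arrays, no direction is given for MUC1. Beside these, EGFR was at 0.05.

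The genes nearest to EGFR and EREG in their 3 hairpin differences were FUT4, BMP2K and RAB3D for EGFR A_23_P215790, at Euclidean distances of 0.04, 0.06 and 0.06 on the log2 scale, and LRRC16B, BRWD1 and MUC5AC for EREG, at 0.14, 0.17 and 0.19. These were the closest of 17747 probes, over 3 hairpins that share 1 mock array.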

How the data were processed

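Total RNA of each culture was labelled with Cy3 and hybridized by the authors to 1-colour Agilent arrays. The deposited scanner files, made with Agilent Feature Extraction 10.7.1.1, hold processed signal intensity for each spot, background-corrected by that software. The authors also deposited a table of quantile-normalized log2 values, used here as an alternative only. From the scanner files, outlier-flagged spots were left out (254 to 466 per array), no spot was saturated, log2 intensity was averaged over the spots of a probe, and each array was shifted by its own 75th percentile. Differences are hairpin minus mock. Gene names come from the array's design file, and 15240 of 24878 kept genes, with all 10 members, matched RefSeq symbols. For lists, a gene was represented by its brightest kept probe. limma 3.58.1 was run over all kept probes with Benjamini-Hochberg adjustment, after a test on simulated data. Probe positions are hg19. The members, lists and tests were chosen with earlier results of these data known. Named genes were all members, UNC50, and, of the genes of each list detected on all 4 arrays, those past 1.5-fold with every hairpin and up to 4 others of largest mean change. NRG4 and the markers fall outside this rule and were picked with values in view. The precision is limited by the number of arrays.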

Additional observations from a re-analysis of the deposited data

How the results depend on the processing

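Of 292 values recomputed under the alternatives, 258 were classed as the same, 34 as moved and 0 as a reversed call. Among them, 152 were mean log2 differences of member probes, and 148 of these moved by less than the spread between hairpins. Apart from UNC50, the rest were counts of probes or genes, which have no such spread. The alternatives were quantile or median scaling, normexp background correction, the deposited table, low signals raised to the detection level, detection on all 4 arrays, no filter, flagged spots kept, each hairpin left out, a 2-fold threshold, limma without the trend, and the methods' t-test. UNC50 ran from -2.64 to -2.24. Member probes lower on average numbered 2, and 1 under normexp, raised low signals, detection on all 4 arrays or a 2-fold threshold, 3 with no filter, and 1 to 3 with a hairpin left out (3 without shR-749). Member probes higher on average numbered 0, and 0 to 2 with a hairpin left out (2 without shR-467). Those past 1.5-fold with every hairpin numbered 1, and 0 under normexp, raised low signals or detection on all 4 arrays, and 1 to 2 with a hairpin left out (2 without shR-467 or without shR-749). Pathway genes past 1.5-fold numbered 1, and 0 under normexp, raised low signals, detection on all 4 arrays or 2-fold, 2 with no filter, and 2 to 3 with a hairpin left out. Apart from fewer arrays or genes, the cause was not tested. The EGF difference was -0.32 under normexp and -0.20 with low signals raised, and EGFR A_33_P3351955 was at 0.21 and ERBB3 A_33_P3280471 at 0.02 under normexp. AREG A_33_P3419190 reached -0.04, BTC 0.20 and EGFR A_23_P215790 -0.06 at their extremes, signs other than their main ones. limma called 0 members under every setting run. Before adjustment it gave 0 with the main setting, 1 under quantile scaling, normexp, the deposited table, no filter, no trend or without shR-749, and 3 without shR-467. The methods' t-test gave 1 before adjustment and 0 after. Slide and scan could not be fitted as a block, since all arrays share both. No paired analysis was possible because the mock group has 1 array, so the groups share fewer than 2 replicate numbers.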
